A study of Mus musculus with 3 samples.

Results

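The lysine acetyltransferase genes Crebbp, Ep300, Kat2a, Kat2b, Kat5, Kat6a, Kat6b, Kat7 and Kat8 were followed through single-nucleus RNA-seq of differentiated neurosphere cultures. All 9 were found by their symbols among the 30559 genes of the count matrices. The question was whether the remaining acetyltransferases were higher when one of the 2 KAT3 genes, Crebbp (encoding CBP) or Ep300 (encoding p300), had been ablated. The data hold 3 libraries of mouse nuclei: control, CBP-ablated (genotype CBPf/f, with Cre) and p300-ablated (genotype p300f/f, with Cre). According to the methods, neural stem cells came from the subventricular zone of newborn C57BL/6 pups and received a lentivirus carrying either RFP alone or Cre fused to mCherry, and nuclei were sorted before loading. The labels of all 3 libraries name tamoxifen as the treatment, which the methods do not describe, and the line of mice behind the control cultures is not stated. Each library was 1 pool of about 15 cultures at day 15 in vitro, with 16000 nuclei loaded. With 1 library per condition no test between conditions was possible, and every interval below is a 95% interval that covers counting error only.

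Lysine acetyltransferases transfer an acetyl group from acetyl-CoA to lysines of histones and other proteins, and acetylated histone tails mark active promoters and enhancers. CBP and p300 form the KAT3 family, large co-activators that many transcription factors recruit, and loss of 1 copy of either gene causes Rubinstein-Taybi syndrome in people. Kat2a (GCN5) and Kat2b (PCAF) are the catalytic subunits of the SAGA and ATAC complexes. The MYST family comprises Kat5 (TIP60, of the NuA4 complex), Kat6a (MOZ), Kat6b (MORF), Kat7 (HBO1) and Kat8 (MOF, of the MSL and NSL complexes).

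In the conditional lines, per the methods, loxP sites flank exon 7 of Crebbp and exon 9 of Ep300. These exons are shown because they are what Cre removes, and so they set what the UMI counts (unique molecular identifiers, 1 per captured RNA molecule) can say about the ablation. In the GENCODE M21 annotation of GRCm38, exon 7 of the 31 exons of Crebbp-201 lies at chr16:4126870-4126972 on the minus strand. Exon 9 of the 31 exons of Ep300-201 lies at chr15:81620000-81620117 on the plus strand. Whether the exon numbers of the alleles follow this annotation is not given in the sources used here.

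Crebbp exon 7: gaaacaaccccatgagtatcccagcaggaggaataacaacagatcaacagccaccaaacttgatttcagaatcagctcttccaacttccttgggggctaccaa

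Ep300 exon 9: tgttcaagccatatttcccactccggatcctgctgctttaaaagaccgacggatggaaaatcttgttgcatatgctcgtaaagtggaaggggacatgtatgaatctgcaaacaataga

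The Crebbp exon is 103 bases long and the Ep300 exon 118 bases long, and neither length is divisible by 3, the codon length. They make up 0.0776% and 0.177% of the gene spans and lie 45.5 kb and 32.0 kb from the 3′ ends of the genes. The UMIs were counted over exons and introns from 3′ libraries, so those of Crebbp and Ep300 come almost wholly from outside the deleted exons. The level of a floxed gene in its own ablated library is therefore no check of the deletion.

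The control library held 4884 nuclei, the CBP-ablated library 3017 and the p300-ablated library 4648, with 12748336 to 18876682 UMIs per library and a median of 3219, 4016 and 3902.5 UMIs per nucleus. Between 0.133% and 0.205% of the barcodes of a library were also found in another library. Clustering gave 13 clusters, of which 10 carried the markers of 1 cell type and were named after it (for example "neuron-like") and 3 stayed unnamed. The marker lists include genes by which the paper named its own clusters of these same nuclei, so the names are no independent check of it. The named clusters ran from progenitors (NPC/OPC-like, for neural and oligodendrocyte progenitors, and RGC/PSC-like, for radial glial and pluripotent cells) to oligodendrocyte-like and neuron-like nuclei, with 311 microglia-like nuclei. The 1279 astrocyte-like nuclei were all in the control library, and oligodendrocyte-like nuclei were 16.1% of the CBP-ablated, 3.28% of the control and 4.15% of the p300-ablated library. Ratios are therefore given for the whole library and, where stated, also standardised. For this, the levels in the 12 clusters with at least 20 nuclei in all 3 libraries were averaged. The weights were the same in each library, and the standardised ratio is that of these averages.

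Levels are given as CPM, the UMIs of a gene scaled to a library total of 1000000 UMIs. Of the KAT3 genes, Crebbp was at 335 CPM in control, 370 CPM after CBP ablation and 365 CPM after p300 ablation. Ep300 was at 114, 136 and 115 CPM in the same order of libraries, and Kat2b at 104, 132 and 117 CPM. Of the MYST genes, Kat6a was at 137, 147 and 134 CPM, Kat6b at 235, 271 and 258 CPM and Kat7 at 42.5, 49.9 and 46.5 CPM. For each of these but Kat6a, both ablated libraries were above control. Kat2a, Kat5 and Kat8 had 124 to 239 UMIs per library and levels of 7.79 to 12.7 CPM, so their ratios carry the widest intervals. Summed over the 9 genes, the level was 997 CPM in control, 1138 CPM after CBP ablation and 1066 CPM after p300 ablation. The control library was the lowest of the 3 in this sum. Leaving out the floxed Crebbp, the sum was 662 CPM in control and 769 CPM after CBP ablation. Leaving out the floxed Ep300, it was 883 CPM in control and 951 CPM after p300 ablation.

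**Figure D1:**
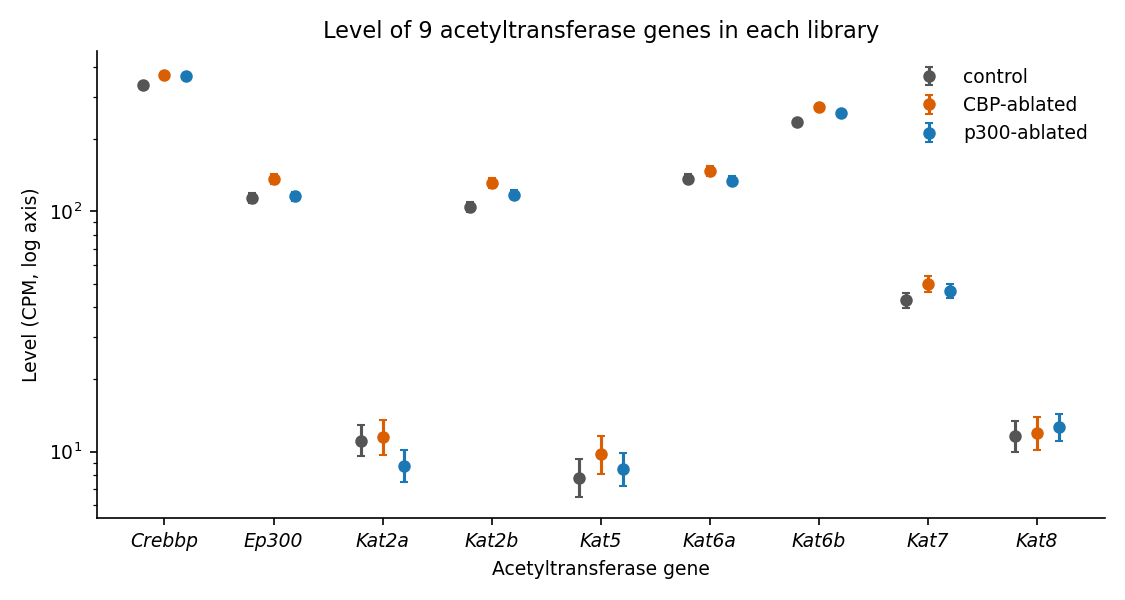
Level of each of the 9 acetyltransferase genes in the control, CBP-ablated and p300-ablated libraries, in CPM on a log axis, with 95% Poisson intervals as bars. The points span from 7.79 CPM for Kat5 in control to 370 CPM for Crebbp in the CBP-ablated library, and for each gene the 3 libraries lie close together on this scale.

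The gene spans differ from 7.22 kb (Kat5) to 191 kb (Kat6b), and a longer gene yields more intronic UMIs, so levels were compared between genes per kb only. Per kb of gene span the control level was 2.52 CPM for Crebbp, 1.71 CPM for Ep300, 1.63 CPM for Kat6a, 1.44 CPM for Kat2a, 1.23 CPM for Kat6b, 1.18 CPM for Kat7, 1.08 CPM for Kat5, 0.984 CPM for Kat2b and 0.870 CPM for Kat8. Crebbp was highest in all 3 libraries per kb of span and also per kb of exon. The order below it depended on the measure: Kat2b was next to last per kb of span and next to Crebbp per kb of exon, at 21.4 CPM against 24.7 CPM in control.

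Ep300, the intact KAT3 gene of the CBP-ablated cultures, was higher there than in control. It had 1856 UMIs in control, 1734 after CBP ablation and 2177 after p300 ablation, for levels of 114, 136 and 115 CPM. The CBP-ablated library stood apart from the other two, whose intervals overlapped. The log2 ratio to control was 0.26 (0.16 to 0.35) for the whole library and 0.31 (0.19 to 0.44) when standardised. Against the p300-ablated library the log2 ratio was 0.24 (0.15 to 0.33). Genes with at least 100 UMIs in the CBP-ablated and control libraries together numbered 11882. Of these, 74.3% had a lower ratio than Ep300, and 84.1% when standardised, so a ratio of this size was common among them. They were not matched to Ep300 in UMIs, and the ratios of genes with few UMIs spread more by counting error.

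Within clusters, Ep300 was above control in 12 of 12 in the CBP-ablated library. The log2 ratio ran from 0.09 in proliferating-like nuclei to 0.67 in immature neuron-like nuclei, of which that library held 20 with 12 Ep300 UMIs. The interval lay above 0 in 4 clusters: RGC/PSC-like at 0.33 (0.04 to 0.63), committed oligodendrocyte precursor-like at 0.31 (0.07 to 0.56), oligodendrocyte-like at 0.54 (0.17 to 0.92) and unnamed cluster 7 at 0.51 (0.08 to 0.97). In the oligodendrocyte-like nuclei the level of Ep300 was 86.5 CPM in control, 126 CPM after CBP ablation and 104 CPM after p300 ablation. Of the 2883 genes with at least 20 UMIs in every cluster, 2.46% were above control in all 12, and the median gene was above control in 8. The 12 clusters come from the same pair of libraries and are no replicates of the condition. In nuclei grouped by their UMI total, the Ep300 ratio was 0.63 below 2000 UMIs, 0.29 from 2000 to 4000, 0.22 from 4000 to 8000 and 0.80 above 8000, where control had 30 nuclei.

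Crebbp, the intact KAT3 gene of the p300-ablated cultures, was higher there than in control by a smaller amount. Its log2 ratio was 0.12 (0.07 to 0.18) for the whole library and 0.19 (0.13 to 0.25) when standardised, from 5461 control UMIs and 6887 UMIs after p300 ablation. Of the 12246 genes with at least 100 UMIs in this pair, 70.3% had a lower ratio than Crebbp, and 81.3% when standardised. Within clusters Crebbp was above control in 11 of 12, against 7 for the median of 2888 genes, and 6.16% of those genes were above control in at least 11 (1.73% in all 12). The interval lay above 0 in 4 clusters, with the ratio at 0.37 (0.21 to 0.53) in glial progenitor-like and 0.34 (0.09 to 0.60) in oligodendrocyte-like nuclei. The exception was the neuron-like cluster at −0.09 (−0.49 to 0.31).

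The level of Crebbp was as high in the library in which it was itself floxed. The log2 ratio of Crebbp was 0.14 (0.09 to 0.20) in the CBP-ablated library, or 0.21 (0.14 to 0.29) when standardised. Within clusters of that library Crebbp was above control in 9 of 12, beside 8 for the median gene, and its interval lay above 0 in 5. The last count has no share of all genes beside it. The 2 ablated libraries differed by 0.02 (−0.04 to 0.07). Both ablated libraries were above control in Crebbp and were not distinguishable from each other at this depth. Ep300 in the p300-ablated library had a log2 ratio of 0.02 (−0.07 to 0.11), or 0.09 (−0.02 to 0.19) when standardised, so its interval includes 0 there, and the direct difference between the ablated libraries was the 0.24 given above. As stated for the exons, neither value shows how much functional transcript was left. The paper states that the recombined Crebbp allele makes a truncated protein. For the recombined Ep300 allele it cites earlier work reporting no mature mRNA or protein. It describes Cre-infected Crebbp-floxed cultures as negative for CBP staining.

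**Figure D2:**
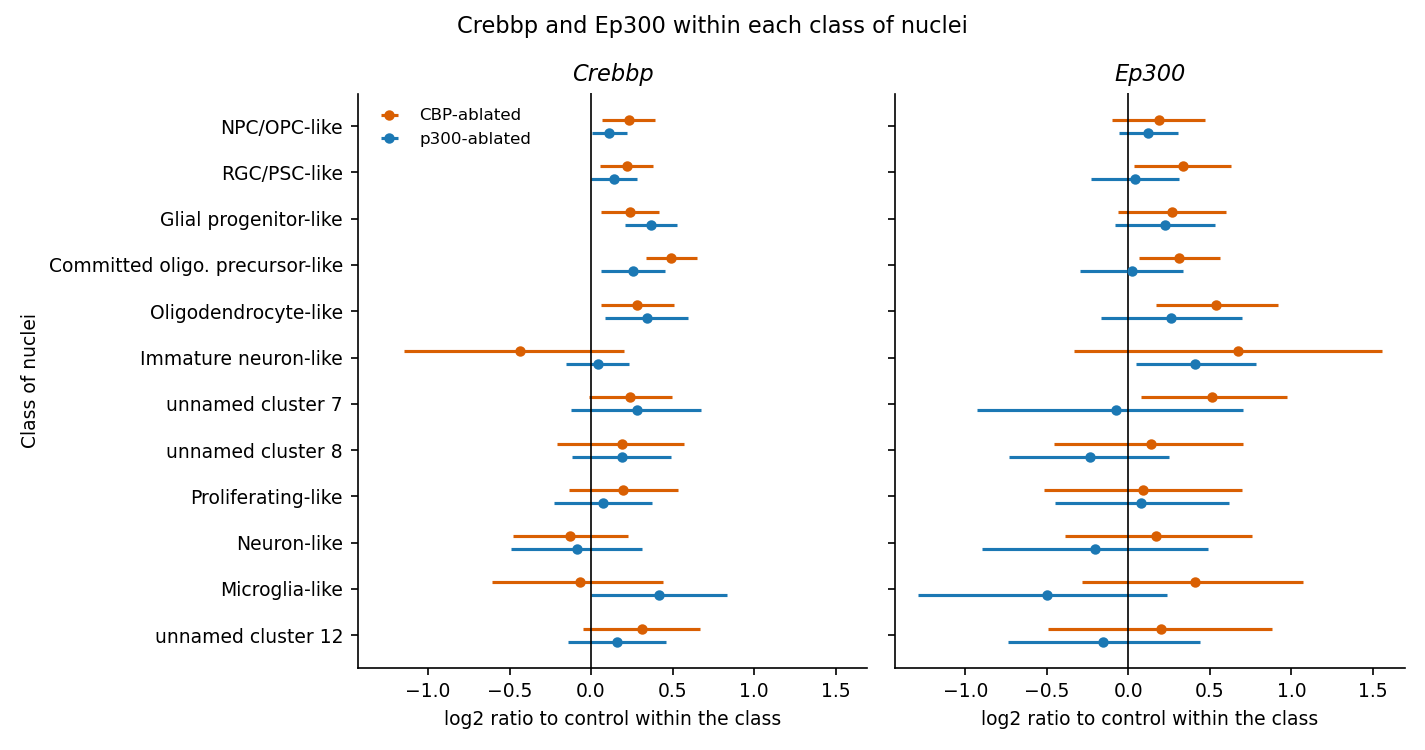
log2 ratio to control of Crebbp (left) and Ep300 (right) within each of the 12 clusters, for the CBP-ablated and the p300-ablated library, with 95% intervals as horizontal lines and 0 as a vertical line. Ep300 in the CBP-ablated library lies to the right of 0 in 12 of 12 clusters, and Crebbp in the p300-ablated library in 11 of 12. In the library of its own ablation Crebbp lies to the right of 0 in 9 of 12 clusters and Ep300 in 7 of 12.

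The balance of the 2 KAT3 genes, as the number of Crebbp UMIs for each Ep300 UMI, was 2.94 (2.79 to 3.103) in control, 2.72 (2.57 to 2.87) after CBP ablation and 3.16 (3.01 to 3.32) after p300 ablation. The ablated libraries lay on opposite sides of control, and their intervals did not overlap each other, while both overlapped the interval of control. Across clusters with the libraries together, the balance ran from 2.26 (1.80 to 2.86) in microglia-like nuclei to 3.74 (3.09 to 4.56) in unnamed cluster 12. In single nuclei thinned to 1500 UMIs, a Crebbp UMI was expected in 38.6% of nuclei in control, 42.3% after CBP ablation and 41.1% after p300 ablation, and an Ep300 UMI in 15.2%, 18.1% and 15.8%. Without thinning the shares were 62.6%, 73.9% and 70.9% for Crebbp and 29.7%, 40.4% and 34.2% for Ep300. Thinning kept 4636, 2922 and 4513 nuclei, and since no cluster is known to lack these genes, no background share from free RNA could be set beside them.

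Of the GCN5/PCAF pair, Kat2b was the member with the largest ratio in the CBP-ablated library, and that value was smaller when standardised. Kat2b had 1699, 1677 and 2214 UMIs in control, CBP-ablated and p300-ablated nuclei, and its log2 ratio was 0.34 (0.24 to 0.44) in the CBP-ablated library, a 1.26-fold difference. Outside the astrocyte-like cluster the ratio was 0.24, and standardised it was 0.12 (−0.00 to 0.25). Kat2b was above control in 6 of 12 clusters and below it in the other 6. Of 2883 genes, 76.1% were above control in at least 6, and the median gene in 8. Its interval lay above 0 in the committed oligodendrocyte precursor-like nuclei at 0.43 (0.15 to 0.73) and in unnamed cluster 8 at 0.74 (0.14 to 1.32), and below 0 in unnamed cluster 12 at −0.87 (−1.63 to −0.17). After p300 ablation the Kat2b ratio was 0.17 (0.08 to 0.26), or 0.11 (0.00 to 0.21) standardised. Kat2b was above control there in 9 of 12 clusters, beside 7 for the median gene. Its interval lay above 0 in 0 clusters and below 0 in 1, again unnamed cluster 12, at −0.68 (−1.21 to −0.15).

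Kat2b differed between the glial clusters. Its level was highest in oligodendrocyte-like nuclei at 189 CPM (177 to 201) with the libraries together, and lowest in astrocyte-like nuclei at 80.8 CPM (72.1 to 90.2). By library, the highest cluster was microglia-like in control at 168 CPM, level with the oligodendrocyte-like nuclei, unnamed cluster 8 after CBP ablation at 217 CPM (156 to 295) and oligodendrocyte-like after p300 ablation. The lowest was neuron-like in control at 68.1 CPM and after p300 ablation at 82.4 CPM, and unnamed cluster 12 after CBP ablation at 83.2 CPM. In oligodendrocyte-like nuclei it was 168 CPM in control, 189 CPM after CBP ablation and 201 CPM after p300 ablation. The oligodendrocyte-like level in each library lay above the highest Kat2b level of the committed oligodendrocyte precursor-like nuclei, which had 86.2, 116 and 107 CPM. In the CBP-ablated library the larger share of oligodendrocyte-like nuclei and the absence of astrocyte-like nuclei, given above, stood beside the whole-library ratio of Kat2b, and their part in it was not tested beyond the standardised value.

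**Figure D3:**
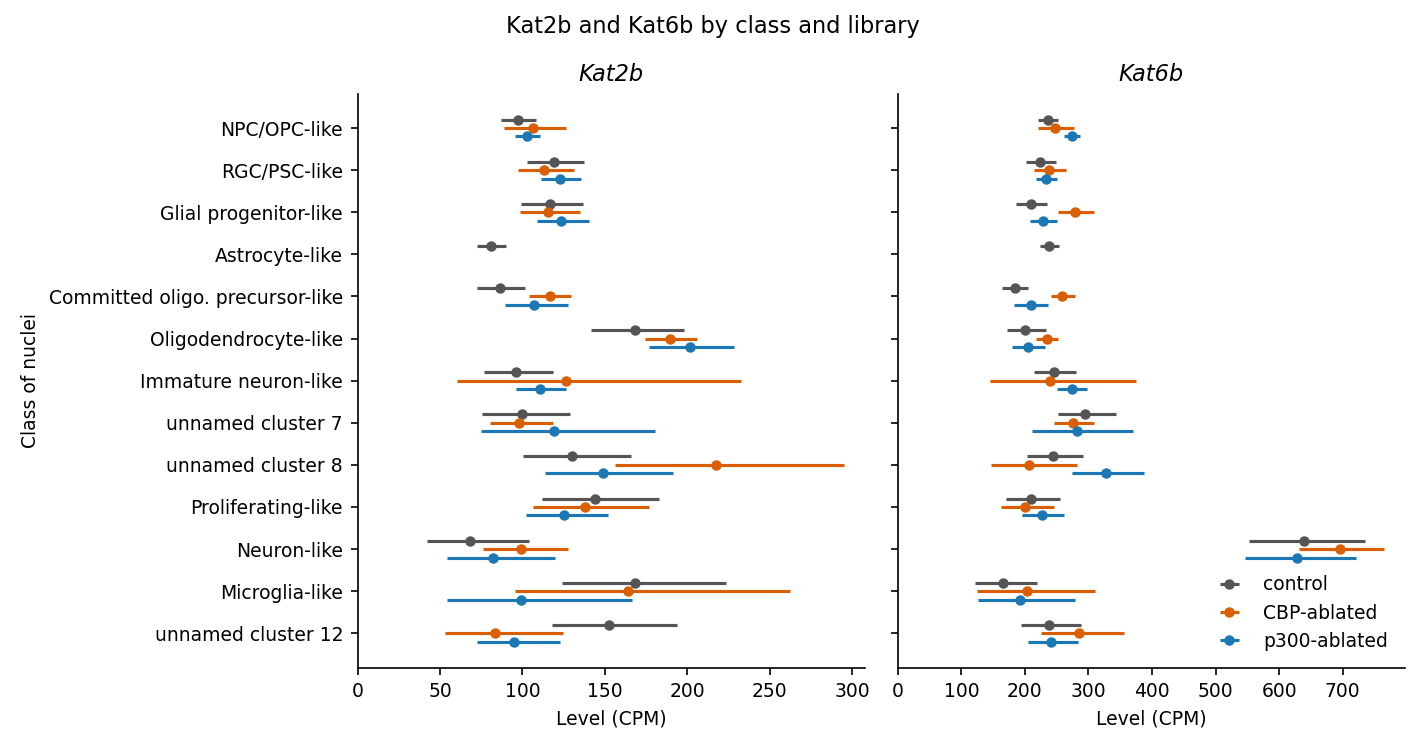
Level of Kat2b (left) and Kat6b (right) in each cluster and library, in CPM, with 95% Poisson intervals as horizontal lines. Kat2b is at 168 to 201 CPM in the oligodendrocyte-like cluster, and Kat6b is at 629 to 696 CPM in the neuron-like cluster, where Kat6b is above its level in all other clusters of the same library.

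Kat2a, the closest relative of Kat2b, went the other way in the p300-ablated library. It had 181 UMIs in control, 146 after CBP ablation and 165 after p300 ablation, or 11.1, 11.5 and 8.74 CPM. The log2 ratio in the p300-ablated library was −0.34 (−0.66 to −0.03), and −0.24 (−0.59 to 0.10) standardised, an interval that includes 0. In the CBP-ablated library it was 0.05 (−0.28 to 0.37), and −0.02 (−0.41 to 0.36) standardised. The intervals of Kat2a were wide at this depth, so a small change could not be told apart from none.

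Among the MYST genes, Kat6b and Kat7 were above control in both ablated libraries, with small ratios. Kat6b had 3827, 3456 and 4866 UMIs, and its log2 ratio was 0.21 (0.14 to 0.28) after CBP ablation and 0.14 (0.07 to 0.20) after p300 ablation. Standardised, these were 0.16 (0.07 to 0.25) and 0.13 (0.06 to 0.20), so Kat6b kept an interval above 0 in both. Of all genes tested, 63.7% and 72.3% had a lower standardised ratio than Kat6b, so ratios of this size were common among genes not matched to it in UMIs. Kat6b was above control in 8 of 12 clusters after CBP ablation, as was the median gene, and in 10 of 12 after p300 ablation. Of the genes counted, 50.6% and 13.4% were above control in at least as many clusters. Kat7 had a log2 ratio of 0.23 (0.07 to 0.39) in the CBP-ablated library, or 0.10 (−0.09 to 0.29) standardised, and 0.13 (−0.02 to 0.27) in the p300-ablated library. The standardised intervals of Kat7 include 0 in both.

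Kat6a, the paralog of Kat6b, was higher than control in the CBP-ablated library, and its interval in the p300-ablated library included 0. Its log2 ratio after CBP ablation was 0.10 (0.01 to 0.19), and 0.23 (0.11 to 0.35) standardised. In the p300-ablated library it was −0.03 (−0.11 to 0.06), and 0.03 (−0.07 to 0.12) standardised. The CBP-ablated library was above the p300-ablated library by 0.13 (0.04 to 0.22). Of all genes tested, 56.4% had a lower ratio than Kat6a in the CBP-ablated library, and 73.9% when standardised. Kat6a was above control in 10 of 12 clusters of that library, as many as or fewer than 20.8% of 2883 genes. In the p300-ablated library it was above control in 6 of 12, as many as or fewer than 66.6% of 2888 genes. There, glial progenitor-like nuclei had 0.55 (0.26 to 0.85).

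The whole-library and standardised intervals of Kat5 and Kat8 included 0 in both ablated libraries. The log2 ratio of Kat5 was 0.32 (−0.05 to 0.69) after CBP ablation and 0.12 (−0.22 to 0.47) after p300 ablation. That of Kat8 was 0.04 (−0.28 to 0.36) and 0.13 (−0.15 to 0.41), and 0.29 (−0.04 to 0.61) standardised in the p300-ablated library. Within clusters after p300 ablation, the interval of Kat8 lay above 0 in NPC/OPC-like nuclei at 0.72 (0.03 to 1.46), and that of Kat5 lay below 0 in unnamed cluster 12 at −2.11 (−4.63 to −0.10) from 3 and 9 UMIs. Kat5 overlaps Rnaseh2c on the opposite strand over 4006 bases, and Kat8 overlaps Prss8 on the opposite strand over 122 bases, so the assignment of reads in these stretches rests on the strand setting of the counting.

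Counted with a limit of 0.322 on the log2 scale in either direction, 1 of the 9 genes was higher in the CBP-ablated library (Kat2b), beside 20.1% of all genes tested, and 0 were lower, beside 18.8%. Kat5 was just inside the limit at 0.321. Standardised, 0 of 9 were past this limit in either direction, beside 15.3% of all genes higher and 11.2% lower. In the p300-ablated library 0 of 9 were higher, beside 13.2% of all genes, and 1 was lower (Kat2a), beside 19.3%. Standardised, 0 of 9 were past it, beside 8.21% higher and 10.7% lower. The acetyltransferases were thus not past the limit more often than genes in general in either library. The genes in general were not matched to them in UMIs, and counting error takes genes with few UMIs past the limit more easily.

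By direction alone, 9 of 9 genes had a log2 ratio above 0 in the CBP-ablated library, beside 56.6% of all genes. Their median was 0.21, beside 0.06 for all genes. After p300 ablation 7 of 9 were above 0, beside 45.2% of all genes, with a median of 0.12 beside −0.03. Standardised, 8 of 9 were above 0 in each ablated library, with Kat2a below, beside 62.1% of all genes for CBP and 51.5% for p300. The standardised interval of Kat2a included 0 in both. In the CBP-ablated library the immature neuron-like cluster, with 6.58% of the weight, rested on 20 nuclei with 0 UMIs of Kat2a, Kat5 and Kat8. The standardised medians of the 9 genes were 0.14 and 0.11, beside 0.08 and 0.01 for all genes. The largest standardised ratio was 0.31 in the CBP-ablated library (Ep300) and 0.29 in the p300-ablated library (Kat8). Both comparisons use the same control library, so a low or high level there enters both. The counts and medians of the 9 genes include the floxed gene of each library, Crebbp at 0.14 and Ep300 at 0.02 for the whole library.

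**Figure D4:**
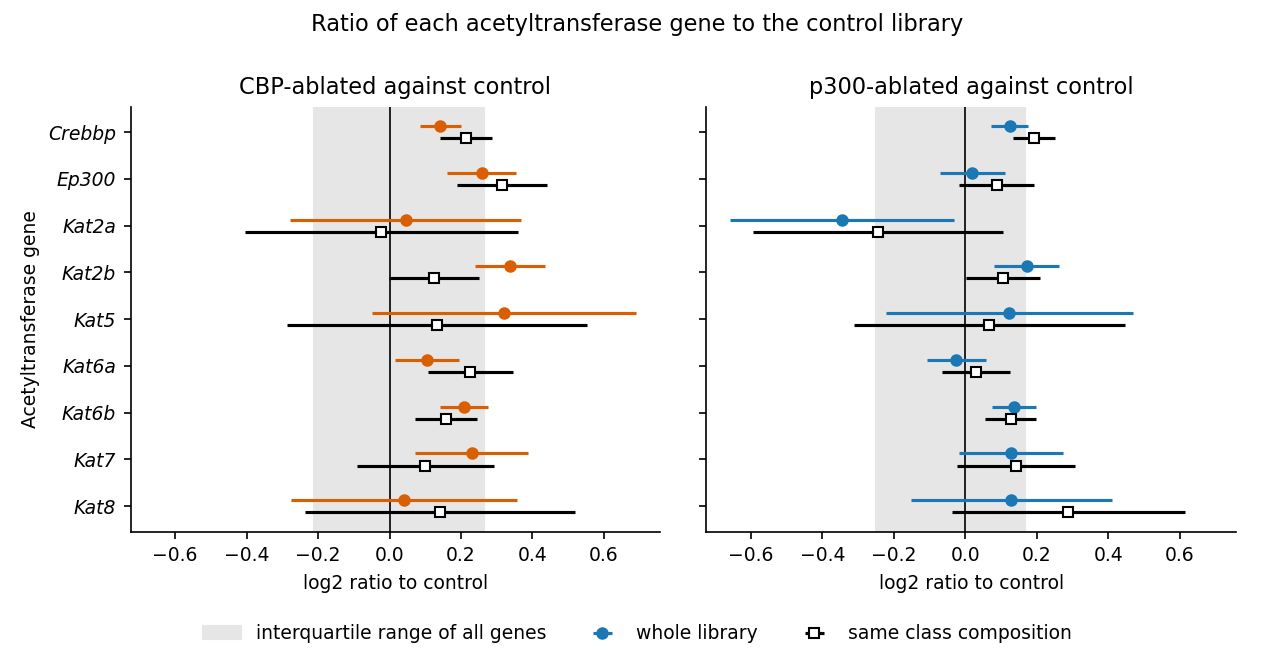
log2 ratio to control of the 9 acetyltransferase genes in the CBP-ablated (left) and p300-ablated library (right), with 95% intervals. Filled circles are whole-library ratios, open squares are ratios standardised to the same cluster makeup, and the grey band is the interquartile range of the whole-library ratios of all genes tested. Kat2b in the CBP-ablated library moves from 0.34 to 0.12 on standardisation, while Ep300 moves from 0.26 to 0.31.

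Of 17 other enzymes with acetyltransferase activity, 16 had at least 100 UMIs with control. In the CBP-ablated library 12 of 16 were above 0, beside 56.6% of all genes, with a median of 0.19, and in the p300-ablated library 7 of 16, beside 45.2%, with a median of −0.01. Past the same limit, 4 of 16 were higher in the CBP-ablated library and 1 was lower, beside 20.1% and 18.8% of all genes. The tubulin acetyltransferase Atat1 had 45.9 CPM in control, 71.7 CPM after CBP ablation and 42.6 CPM after p300 ablation, so it was higher in the CBP-ablated library alone, at 0.64 (0.50 to 0.78). Standardised, that ratio was 0.25. The others were Mcm3ap at 0.41 (0.21 to 0.61), the RNA cytidine acetyltransferase Nat10 at 0.40 (0.21 to 0.60) and the circadian regulator Clock at 0.33 (0.25 to 0.41). The nuclear receptor co-activator Ncoa1 was at −0.43 (−0.48 to −0.38), and at −0.10 standardised. In the p300-ablated library 0 were higher and 1 was lower, beside 13.2% and 19.3% of all genes, the cohesin acetyltransferase Esco1 at −0.38 (−0.50 to −0.26), or −0.08 standardised. Standardised, 1 of the 16 was past the limit in the CBP-ablated library (Mcm3ap, higher), beside 15.3% of all genes higher, and 0 in the p300-ablated library.

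The partners of the acetyltransferases in their complexes were mostly within the limit. For the SAGA and ATAC complexes of Kat2a and Kat2b, 2 of 18 tested partners were higher in the CBP-ablated library: Usp22, the ubiquitin protease of SAGA, at 0.82 (0.64 to 1.01), and Wdr5 at 0.34 (0.10 to 0.58). Usp22 had 25.7 CPM in control, 45.4 CPM after CBP ablation and 30.8 CPM after p300 ablation, and its standardised ratio in the CBP-ablated library was 0.45. Of 16 NuA4 partners of Kat5, 1 was higher there, Morf4l2 at 0.53 (0.35 to 0.71). Of 8 partners of Kat6a, Kat6b and Kat7, 1 was higher, the scaffold Brpf3 at 0.64 (0.41 to 0.86), with a standardised ratio of 0.41. Of 10 MSL and NSL partners of Kat8, 0 were past the limit, with a median of 0.17. Of all 52 tested partners, 4 were higher and 0 lower in the CBP-ablated library, beside 20.1% and 18.8% of all genes. Standardised, 3 SAGA and ATAC partners, 2 of the Kat6a, Kat6b and Kat7 partners and 1 of the MSL and NSL partners were higher past the limit, and 0 of the NuA4 partners, beside 15.3% of all genes.

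After p300 ablation 1 of the 52 tested partners was past the limit, Jade1, a scaffold of the Kat7 complex, at 0.56 (0.23 to 0.89) from 124 and 211 UMIs, beside 13.2% of all genes higher and 19.3% lower. Its standardised ratio was 0.26. The list medians there were −0.04 for SAGA and ATAC, −0.06 for NuA4, 0.11 for the MOZ/MORF and HBO1 partners and −0.06 for MSL and NSL. In the CBP-ablated library they were 0.12, 0.12, 0.15 and 0.17, beside the median of 0.06 for all genes. Of the SAGA and ATAC partners of Kat2b, 8 of 18 were above 0 after p300 ablation, beside 45.2% of all genes. After CBP ablation 11 of 18 were, beside 56.6%, so both counts of this list were near the general share. Above 0 were 14 of 16 NuA4 partners after CBP ablation and 7 of 16 after p300 ablation. For the MOZ/MORF and HBO1 partners it was 6 of 8 in both, and for the MSL and NSL partners 7 of 10 and 4 of 10. Standardised, the counts after CBP ablation were 11 of 18, 14 of 16, 8 of 8 and 8 of 10, beside 62.1% of all genes.

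Across cell types, Kat6b was highest in neuron-like nuclei. Its highest cluster was 3.70 times the lowest, against 1.60 to 2.34 times for the other genes with over 500 UMIs per library. For Kat5 it was 3.71 times, with 4 UMIs in the lowest cluster. The share of all genes with such a range was not counted, so the values describe Kat6b among the 9 genes only. Kat6b stood at 664 CPM (619 to 711) in neuron-like nuclei and at 179 to 282 CPM in the other 12 clusters. In the neuron-like nuclei it was 639 CPM in control, 696 CPM after CBP ablation and 629 CPM after p300 ablation, the highest cluster in each. The second cluster was at 295, 286 and 327 CPM, so the neuron-like interval lay above the second cluster in all 3 libraries. Within neuron-like nuclei the Kat6b ratio to control was 0.12 (−0.12 to 0.37) after CBP ablation and −0.02 (−0.31 to 0.27) after p300 ablation. Its difference between cell types was thus present in all 3 libraries. The counts do not show whether the deletion took place in the neuron-like nuclei.

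**Figure D5:**
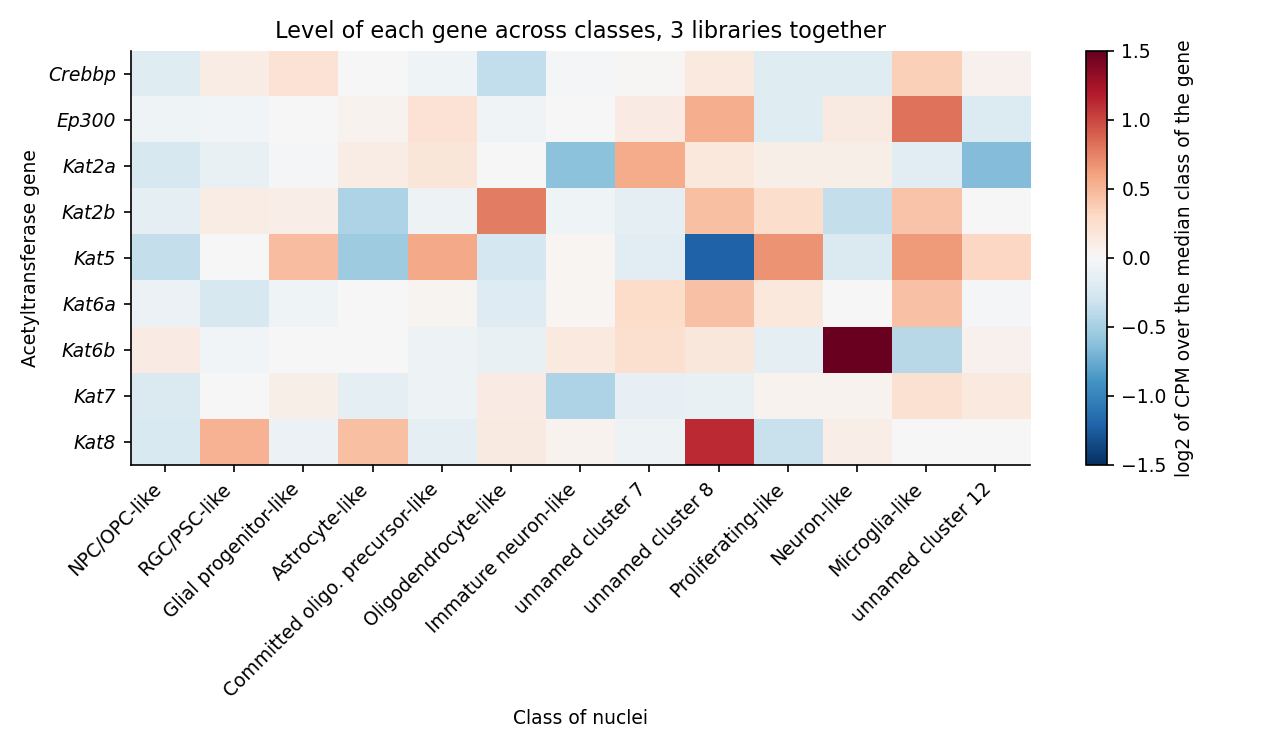
Level of each acetyltransferase gene in each cluster with the 3 libraries together, as log2 of its CPM over the CPM of its median cluster (red above, blue below). The darkest red cell is Kat6b in neuron-like nuclei at 664 CPM, and the strong colours of Kat5 and Kat8 in unnamed cluster 8 rest on 4 and 27 UMIs.

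The KAT3 genes varied less between clusters. Crebbp ran from 284 CPM (269 to 299) in oligodendrocyte-like to 470 CPM (414 to 532) in microglia-like nuclei, a 1.66-fold range. With the libraries together, 1 of 12 neighbouring pairs in that order had intervals that did not overlap, the committed oligodendrocyte precursor-like nuclei at 352 CPM and the NPC/OPC-like nuclei at 324 CPM. In control alone that order was reversed, at 283 CPM (258 to 309) and 304 CPM (286 to 323), with overlapping intervals. Microglia-like nuclei were the highest in control at 435 CPM and after p300 ablation at 582 CPM, and had 415 CPM after CBP ablation, where unnamed cluster 12 had 430 CPM. The oligodendrocyte-like cluster was the lowest in control (238 CPM) and after p300 ablation (302 CPM), and it had 290 CPM in the CBP-ablated library, where immature neuron-like nuclei with 21 UMIs were lowest.

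With the libraries together, Ep300 ran from 102 CPM (85.7 to 121) in unnamed cluster 12 to 208 CPM (171 to 250) in microglia-like nuclei. The lowest cluster differed between libraries: oligodendrocyte-like in control at 86.5 CPM, proliferating-like after CBP ablation at 106 CPM and unnamed cluster 12 after p300 ablation at 93.4 CPM. Microglia-like nuclei were the highest in control at 211 CPM and in the CBP-ablated library at 280 CPM, and in the p300-ablated library they had 149 CPM from 21 UMIs. These nuclei had a median of 1151 UMIs, the lowest of the 13 clusters. Along the order with the libraries together, 1 of 12 neighbouring pairs was apart, unnamed cluster 8 (led by Cdkn1a and Mdm2 among others) at 171 CPM and the committed oligodendrocyte precursor-like nuclei at 137 CPM. Within single libraries their intervals were apart in control and overlapped in both ablated libraries. For Kat6a, Kat7, Kat2a, Kat2b, Kat5 and Kat8 no neighbouring pair of clusters was apart in the same order. The ends of the order were apart for Kat2b, Kat6a and Kat8, for Kat8 from 27 and 16 UMIs. The order was made from these same values, which favours a gap between its ends. The share of all genes with ends or neighbours apart was not counted, so nothing is read from these gaps. With classes assigned by marker scores, Kat8 in proliferating-like nuclei, its lowest cluster, went from 9.02 to 13.6 CPM.

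The genes whose levels were most like those of Crebbp over the 28 groups of cluster and library with at least 100 nuclei were Thoc2, with a Pearson correlation of log2 CPM of 0.84, Traf3 (0.84), Nfkb1 (0.83), Fbxw11 (0.83) and Arhgap12 (0.81), among 1639 genes with at least 20 UMIs in each group. Those most like Ep300 were Ankrd17 (0.85), Pitpna (0.80), Zfc3h1 (0.80), Ap3d1 (0.79) and Rbbp6 (0.79). Crebbp and Ep300 had a correlation of 0.56 with each other, Ep300 and Kat6a one of 0.57, and Crebbp and Kat6b one of 0.04. By rank among these genes, Ep300 was number 229 for Crebbp, while Crebbp was number 185 and Kat6a number 168 for Ep300. The groups share libraries and differ in depth, so these values are a description over 28 points.

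By position, the 9 genes are spread over 8 chromosomes of GRCm38 in the annotation. Crebbp lies on chromosome 16 from 4081328 to 4213997 on the minus strand, and Ep300 on chromosome 15 from 81585351 to 81652077 on the plus strand. Kat2a lies on chromosome 11 from 100704746 to 100712465 on the minus strand and shares that chromosome with Kat7, from 95274259 to 95310246, also on the minus strand. Kat2b lies on chromosome 17 from 53566861 to 53672720 on the plus strand, and Kat6b on chromosome 14 from 21481434 to 21672478 on the plus strand. Kat5 lies on chromosome 19 from 5603014 to 5610237 on the minus strand, Kat6a on chromosome 8 from 22859535 to 22943259 on the plus strand and Kat8 on chromosome 7 from 127912516 to 127925837 on the plus strand. The spans of Kat6b (191 kb), Crebbp (133 kb) and Kat2b (106 kb) are the longest of the 9, and those of Kat5 (7.22 kb) and Kat2a (7.72 kb) the shortest.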

How the data were processed

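Reads were aligned to GRCm38 with Cell Ranger 3.1 per the labels and methods, and the values the authors deposited are raw UMI counts per gene and nucleus, taken over introns as well as exons. All 12549 deposited nuclei were kept. The 9 genes, the lists and the comparisons were chosen with earlier results of these data known. Clusters of the merged nuclei came from Seurat 5.3.0 under R 4.3.3 (LogNormalize, 1617 variable genes, none of them a listed gene, 20 components, 30 neighbours, resolution 0.6, seed 1), and clusters were named when at least 60% of the markers of a type, and at least 3, passed. Scrublet in scanpy 1.11.5 called 191, 73 and 173 doublets at 0.8% per 1000 nuclei, which were kept in the values given (its own threshold gave 145, 95 and 77). UMIs were summed per library and per cluster with Python 3.11.15, numpy 2.4.6, pandas 2.3.3 and scipy 1.17.1, and figures were drawn with matplotlib 3.10.9. Intervals are exact Poisson for CPM and conditional exact binomial for ratios, and a standardised ratio weights 12 clusters by their share of all UMIs, with a delta-method interval. A count of 3 UMIs, the floor for a gene at 0, is 0.184, 0.235 and 0.159 CPM in the control, CBP-ablated and p300-ablated library. Ratios were taken over genes with at least 100 UMIs in both libraries together. The named genes are the 9 members, partner genes past a log2 ratio of 0.322 that are among the 2 largest or 2 smallest ratios of their list (Nat10 and Clock were added once their values were known), and the 5 genes most like Crebbp and Ep300. The intervals for CPM and for ratios were tried on simulated Poisson counts, the model they assume. Clustering, naming, standardisation and thinning were not tried on simulated data.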

Additional observations from a re-analysis of the deposited data

How the results depend on the processing

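No paired analysis was possible because each condition is 1 library and the labels carry no replicate numbers, and for the same reason no library could be left out. The ratio of Ep300 in the CBP-ablated library was 0.20 to 0.31 under 8 of 9 alternatives and 0.46 in 1 random thinning to 1500 UMIs, for which the value expected over all draws, added after the data were seen, was 0.28. The ratio of Crebbp in the p300-ablated library was 0.09 to 0.17 under 8 of 9 alternatives and 0.19 when standardised. No ratio of a member past the limit of 0.322 on the log2 scale changed its direction. The number of members higher past this limit in the CBP-ablated library, 1 as reported, was 0 outside the astrocyte-like cluster, standardised, centred, with nuclei weighted equally, without the 50 leading genes and at 1.5-fold, 2 at 1500 or more UMIs or without doublets, and 3 in the random thinning. The number lower in the p300-ablated library, 1 as reported, was 0 at 1500 or more UMIs, in both forms of thinning, standardised, centred, at 1.5-fold and with a minimum of 500 UMIs, and 1 member was higher in the random thinning. Of the 68 tested partners and other acetyltransferases, the number higher in the CBP-ablated library was 8 as reported, 14 in the random thinning and 3 at 1.5-fold. The number lower there, 1 as reported, was 0 outside the astrocyte-like cluster, standardised and at 1.5-fold, 2 without doublets, without the leading genes, in the expected thinning, with equal weights and with a minimum of 1 UMI, 3 when centred and 6 in the random thinning. In the p300-ablated library 1 was higher as reported, 0 when standardised, at 1.5-fold and at 500 UMIs, 2 at 1500 or more UMIs, without doublets, with equal weights and centred, 3 in the expected and 4 in the random thinning, and 1 was lower as reported, 0 when standardised and at 1.5-fold, 2 at 1500 or more UMIs and with a minimum of 1 UMI, 3 without doublets, 4 without the leading genes, in the expected thinning and with equal weights, and 6 in the random thinning. The cause of these shifts was not tested. The share of all genes past the limit is given only for the whole library and when standardised. The counts under the other settings therefore have no background beside them, and nothing about the listed genes is read from them. The level of Kat6b in neuron-like nuclei was 564 CPM when classes were assigned by marker scores instead of clusters, and clustering with the listed genes allowed among the variable genes gave the same clusters, since none was variable. Kat2a, Kat5 and Kat8 are limited by their UMIs.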
